A study of Sus scrofa with 2 samples.

Results

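Carbonic anhydrases speed the conversion of carbon dioxide and water to bicarbonate and a proton, and transporters of the SLC4 and SLC26 families carry bicarbonate across cell membranes. Cytosolic isozymes such as CA2 and CA13 work inside the cell, while CA4, CA12 and CA14 are held at the cell surface with the active site facing outward. In the lateral wall of the cochlea these proteins are known for handling the acid made by a tissue with a high energy demand and for setting the bicarbonate of the endolymph. The genes described here are 6 carbonic anhydrases (CA2, CA4, CA8, CA12, CA13 and CA14) and 4 bicarbonate transporters (SLC4A2, SLC4A4, SLC4A7 and SLC26A7). They were chosen by name, and all 10 were found by gene symbol, with 1 feature each, among the 27622 features of the expression table. Of these features 25322 carry Ensembl identifiers.

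RNA from the stria vascularis (SV), dissected with the lateral wall of the cochlea, was sequenced in 2 libraries, 1 from the genotype Mitf R/r and 1 from Mitf r/r; the labels do not say how many animals each holds. The r allele is a spontaneous allele of Rongchang pigs with short insertions in the promoter region of the melanocyte isoform of MITF, the transcription factor that melanocytes depend on. R/r pigs carry 1 copy of it, and r/r pigs are albino and deaf. The sample labels give the age as postnatal day 1, whereas the study's text gives embryonic day 85, and which of these applies was not resolved. Values are RPKM, reads divided by gene model length and library depth, so that levels may be compared between genes. Whole reads behind the values were worked out from them, with totals of 15829244 reads for the R/r library and 14258672 reads for the r/r library. A single read on a gene model of 1 kb was worth 0.0632 RPKM and 0.0701 RPKM, respectively. Differences are given as log2 ratios of RPKM, r/r over R/r, with exact Clopper-Pearson 95% intervals from the reads, and levels with 95% Poisson intervals. Both kinds of interval hold counting error alone. Each genotype has a single library, so no difference has a replicate check, and what is compared is the libraries, not the genotypes.

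The genotypes concern melanocytes, which form the intermediate cells of the SV, and most genes of a list of melanocyte and intermediate cell markers were lower in the r/r library. MITF itself was spread over 3 features, none assigned here to an isoform, and the most abundant had 51.7 RPKM in the R/r library and 37.8 RPKM in the r/r library, a log2 ratio of -0.45 (-0.75 to -0.16). The study states that RPKM of the whole gene cannot separate the melanocyte isoform from the other transcripts. From reads counted per exon, it reports a much larger drop in the r/r SV for the exon of that isoform. All 12 markers of the list were in the table; it does not hold every gene known from melanocytes. Their summed level was 328 RPKM in the R/r library and 13.4 RPKM in the r/r library, and 9 of the 10 past the minimum, above 0 in both libraries with at least 1 RPKM in at least 1 of them, were at least 2-fold lower, beside 2.20% of all genes compared. Of these 10, 6 passed through the R/r library alone, which fixed their direction, and of the 4 with at least 1 RPKM in both libraries 3 were at least 2-fold lower. Most of the lower markers, TYR and EDNRB among them, are also genes that the study lists as differing between the same libraries. The count of lower markers beside that of all genes is therefore a description and not an independent test. The lowest and highest ratios given for the melanocyte list and the other marker lists are those among genes past the minimum. The most abundant, the pigment enzyme gene DCT, had 171 RPKM and 1.19 RPKM. TRPM1 had the lowest log2 ratio, -10.64 (-15.95 to -8.16), on 1776 reads and 1 read, and OCA2 the highest, 0.04 (-0.78 to 0.87). In bulk tissue, fewer cells of a type and less RNA per cell cannot be told apart. The study reports that some melanocyte markers outside this list, KIT and MUM1 among them, were still expressed in the r/r SV. It also reports that intermediate cells were still present there before birth. Genes of the other layers were abundant in both libraries. KCNE1, a potassium channel subunit of marginal cells, had 278 RPKM and 248 RPKM, and CLDN11, the tight junction gene of basal cells, had 840 RPKM and 706 RPKM.

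The 10 genes were spread over a wide range of levels, and their order was similar in both SVs. CA2 (ENSSSCG00000006140) had 368 RPKM (363 to 374) in the R/r library and 388 RPKM (382 to 394) in the r/r library, above 99.3% of all features in each. CA13 (ENSSSCG00000006143), also cytosolic, followed with 134 RPKM (126 to 142) and 146 RPKM (137 to 156). The surface isozyme CA14 (ENSSSCG00000027875) had 73.8 RPKM (70.7 to 77.0) and 53.0 RPKM (50.3 to 55.9). SLC4A2, which exchanges chloride for bicarbonate, had 49.3 RPKM (47.6 to 51.1) and 44.1 RPKM (42.4 to 45.9). These genes held ranks 1 to 4 in both libraries, and no neighbours among them had overlapping intervals. CA2 stood 305 times above CA4, the lowest of the 10, in the R/r library and 579 times above it in the r/r library.

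Below these ranks the order was less certain. The surface isozyme CA12 (ENSSSCG00000004565) had 14.8 RPKM (11 to 19.6) in the R/r library and 4.28 RPKM (2.28 to 7.32) in the r/r library. SLC26A7, an anion transporter known from acid-secreting epithelia, had 14.1 RPKM (12.8 to 15.4) and 13.2 RPKM (11.9 to 14.5). CA8 (ENSSSCG00000006233), a relative without catalytic activity that binds the inositol trisphosphate receptor, had 4.6 RPKM (3.70 to 5.66) and 7.98 RPKM (6.71 to 9.42). CA12 therefore ranked level with SLC26A7 and above CA8 in the R/r library, but below SLC26A7 and level with CA8 in the r/r library, taking overlapping intervals as level. SLC4A7, the electroneutral sodium bicarbonate cotransporter, had 4.16 RPKM (3.79 to 4.57) and 3.33 RPKM (2.98 to 3.72). The least abundant were the electrogenic cotransporter SLC4A4 (ENSSSCG00000008943), with 1.27 RPKM (1 to 1.58) and 0.801 RPKM (0.584 to 1.07), and CA4, with 1.21 RPKM (0.756 to 1.83) and 0.670 RPKM (0.334 to 1.20). Of the 9 pairs of neighbours in the order, 3 overlapped in each library.

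**Figure D1:**
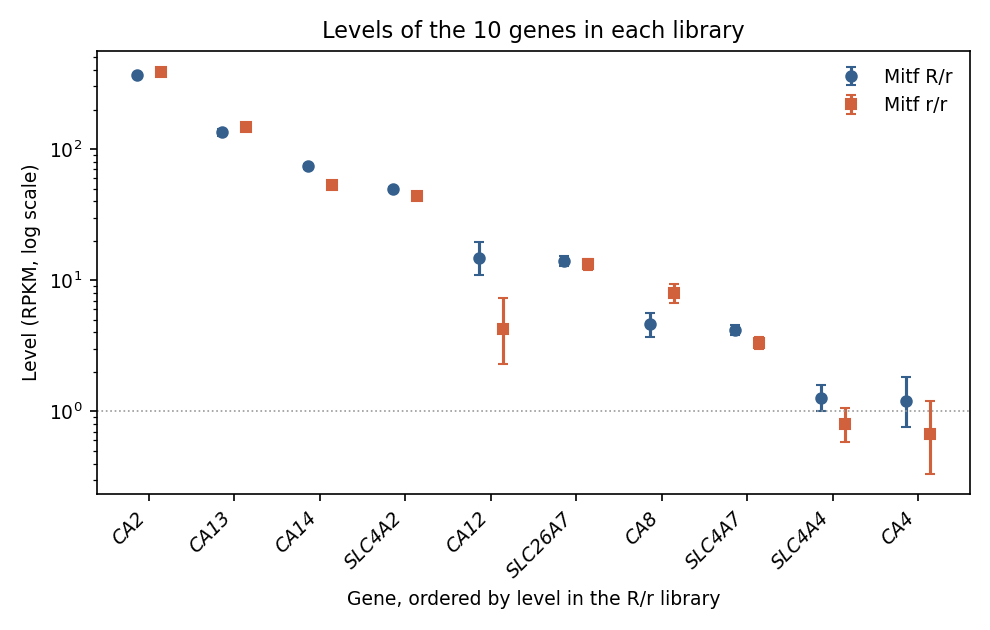
Level of each of the 10 genes in the R/r library (circles) and the r/r library (squares), in RPKM on a log axis, with 95% Poisson intervals from the reads. The dotted line marks 1 RPKM. CA12 is in the fifth place in the R/r library and the seventh in the r/r library, with an interval that overlaps a neighbour's in each. SLC4A4 and CA4 lie under the line in the r/r library.

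Set against each other, 7 of the 10 genes were lower in the r/r library and 3 were higher, with a median log2 ratio of -0.24. The median of all 16331 genes compared, those past the minimum, was -0.02. A single gene, CA12, was at least 2-fold lower, beside 2.20% of all genes compared, and none was at least 2-fold higher, beside 1.78%. The 95% interval lay below 0 for 5 genes, beside 14.4% of all genes, and above 0 for 2 genes, beside 11.2%. The 10 genes had a median of 806 reads over both libraries and all genes compared a median of 441, and more reads make a narrower interval. All 10 genes passed the minimum, but SLC4A4 and CA4 did so through the R/r library alone, where they had to be the higher. Of the 8 genes with at least 1 RPKM in both, 5 were lower and 3 higher, with a median of -0.13, a count chosen after seeing the data. With a minimum of 5 RPKM the median was -0.10, and with a 1.5-fold threshold 4 of the 10 genes were apart in place of 1. Of these 4, 3 were lower, beside 6.31% of all genes compared, and 1 was higher, beside 4.53%; the lower included SLC4A4 and CA4.

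CA12 had the largest difference of the 10, 3.46-fold lower in the r/r library. Its log2 ratio was -1.79 (-2.80 to -0.89). The end of this interval nearest to no change is 1.85-fold, so that a difference under 2-fold was not excluded by the 63 reads behind it, 50 from R/r and 13 from r/r. Among the 13798 genes compared that had 63 reads or more, 0.225% had a lower ratio. The gene model of CA12 came out at 213 bases, too short for the whole gene, and it covers part of the transcript or the reads are a multiple of those found. Of the other surface isozymes, CA14 had a smaller difference on many more reads, 2180 and 1411, with a log2 ratio of -0.48 (-0.57 to -0.38). Of 1492 genes with at least its reads, 2.21% had a lower ratio. CA4, which is tethered to the membrane by a lipid anchor, had a log2 ratio of -0.85 (-2.04 to 0.26) on 22 and 11 reads, a difference not detectable at this depth. Of 14913 genes with at least its reads, 1.96% had a lower ratio. CA4 passed the minimum through the R/r library alone, which fixed its direction.

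The cytosolic isozymes showed small differences in the other direction. CA2 had a log2 ratio of 0.07 (0.04 to 0.10) on 17941 and 17010 reads, a difference of 1.05-fold, and its interval lay above 0 under every scaling tried. CA13 had a log2 ratio of 0.13, and its interval, up to 0.25, just included 0 with the deposited values and lay above 0 when the libraries were scaled by the median or the upper quartile, but included 0 as TPM (-0.04 to 0.22) and as a 99% interval (-0.04 to 0.29). Its gene model came out at 470 bases, which like that of CA12 may be a part of the gene or go with a multiple of the reads found. In the latter case its interval is too wide, and whether a narrower one would leave 0 was not tested. CA8 had the highest ratio of the 10. Its 89 and 139 reads gave a log2 ratio of 0.79 (0.40 to 1.19), or 1.73-fold higher in the r/r library, and 0.566% of the 10420 genes with no fewer reads had a higher ratio. Ratios between genes of the same library do not depend on the scaling of the libraries. CA2 was 4.99 times the level of CA14 in the R/r library and 7.31 times in the r/r library, while CA2 was 2.75 and 2.65 times the level of CA13. CA12 was 3.22 times the level of CA8 in the R/r library and 0.537 times in the r/r library.

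The 4 bicarbonate transporters had log2 ratios below 0, with intervals below 0 for 3 of them, beside 14.4% of all genes compared. SLC4A4, counted in both numbers, passed the minimum through the R/r library alone, which fixed its direction; of the other 3, 2 had intervals below 0. SLC4A2, known in many epithelia for loading chloride and exporting base, had a log2 ratio of -0.16 (-0.24 to -0.08) on 3091 and 2490 reads, and 12% of the 818 genes with at least its reads were lower. SLC4A7, whose loss in mice impairs hearing and vision, had a log2 ratio of -0.32 (-0.53 to -0.11) on 445 and 321 reads, and 4.79% of 6225 genes were lower. SLC4A4 had a log2 ratio of -0.66 (-1.22 to -0.12) on 79 and 45 reads, which with a 99% interval (-1.40 to 0.05) took in 0, and 1.99% of 12183 genes were lower. SLC26A7 had a log2 ratio of -0.10 (-0.30 to 0.10) on 460 and 387 reads, a difference within its counting error.

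**Figure D2:**
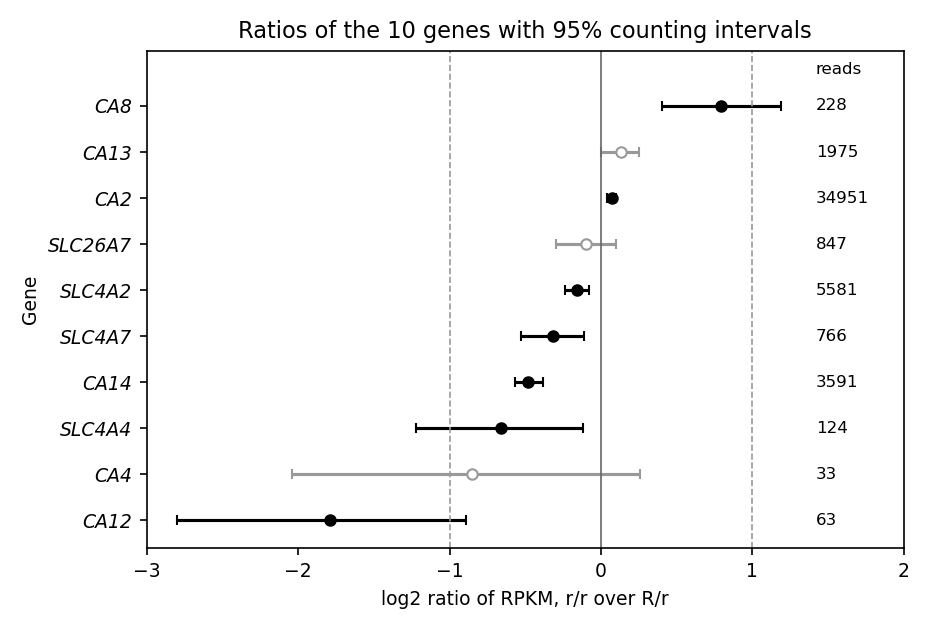
Log2 ratio of RPKM, r/r over R/r, for each of the 10 genes with its exact 95% counting interval, and the reads over both libraries at the right. Filled points have intervals off 0 and open points do not; dashed lines mark 2-fold, which the point for CA12 passes and its interval overlaps.

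**Figure D3:**
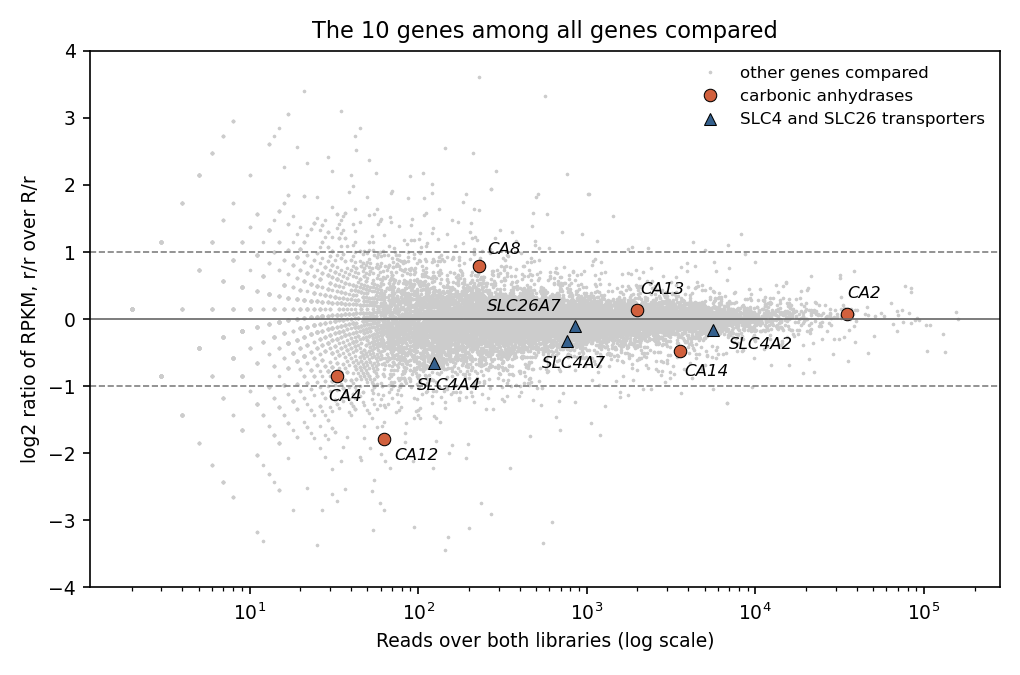
Log2 ratio of RPKM, r/r over R/r, against the reads over both libraries on a log axis for all 16331 genes compared (grey), with the 6 carbonic anhydrases (circles) and the 4 transporters (triangles); 21 grey genes lie outside the plotted ratios. The ratios of all genes spread out as the reads fall, and of the 10 genes CA12 has the lowest ratio and CA8 the highest.

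The catalytic carbonic anhydrases were then summed, to see how the family was made up in each SV. The 10 genes do not include CA3, a cytosolic isozyme of low activity known from muscle and fat, which was the most abundant member of the family, with 1296 RPKM in the R/r library and 1712 RPKM in the r/r library. Its log2 ratio was 0.40 (0.38 to 0.42) on 38345 and 45630 reads. The sum over the catalytic isozymes was 1905 RPKM and 2319 RPKM, a log2 ratio of 0.28, of which CA3 held 68.1% and 73.8%. Without CA3, in a sum chosen after seeing the data, the totals were 608 RPKM and 607 RPKM, and the log2 ratio was 0.00. Within this sum CA2 held 60.6% and 63.9%, CA13 held 22% and 24.1%, CA14 held 12.1% and 8.74%, and CA12 held 2.44% and 0.706%. The higher levels of CA2 and CA13 were thus close in size to the lower levels of CA14 and CA12. Grouped after seeing the values by where the proteins sit, the 4 surface isozymes (CA4, CA9, CA12 and CA14) summed to 99 RPKM and 66.1 RPKM, and each of the 4 had the lower value in the r/r library, a direction that the minimum fixed for CA4. The 5 cytosolic isozymes (CA1, CA2, CA3, CA7 and CA13) summed to 1802 RPKM and 2250 RPKM, and the 4 past the minimum were all higher. Most of that difference was CA3, and without it the cytosolic sum was 506 RPKM and 538 RPKM, a log2 ratio of 0.09. The intervals of CA7, CA9, CA4 and CA13 included 0. The median log2 ratio of all genes compared was -0.02, so that a value on either side of 0 was common.

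**Figure D4:**
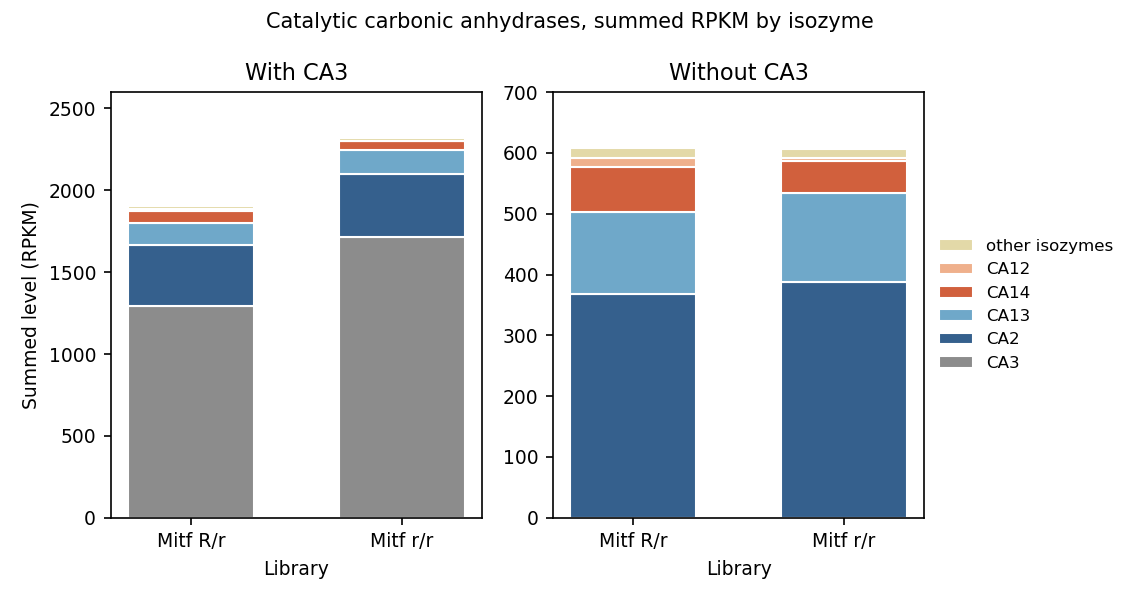
Summed RPKM of the catalytic carbonic anhydrases in the R/r and r/r libraries, stacked by isozyme, with CA3 (left) and without it (right, on a smaller axis). CA3 holds most of each total, and without it the bars are of equal height, 608 and 607 RPKM, with more CA2 and CA13 and less CA14 and CA12 in the r/r library.

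CA3 is known from skeletal muscle. Of 9 muscle markers, 7 were matched, with summed levels of 38.9 RPKM in the R/r library and 42.2 RPKM in the r/r library. MYL1 was listed at 0 in both, and ACTA1 had 0 reads in R/r, with a Poisson interval up to 0.156 RPKM and a level of 0.127 RPKM if 3 reads are taken as the limit of a count of 0, and 1 read in r/r. The most abundant, MYH7, had 18.3 RPKM and 26.3 RPKM and the highest log2 ratio, 0.52 (0.36 to 0.68), and MYH1, which passed the minimum through the R/r library alone, had the lowest, -2.74 (-3.37 to -2.17). The part of muscle in the ratio of CA3 was not tested.

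CA2 is also abundant in osteoclasts and red blood cells. Osteoclast markers summed to 269 RPKM in the R/r library and 249 RPKM in the r/r library over 12 of 12 genes, and the most abundant, CTSK, had 141 RPKM and 138 RPKM. Of the defining genes, OCSTAMP was listed at 0 in both and DCSTAMP had 1 and 2 reads. The lowest log2 ratio was that of MMP9, -0.52 (-0.61 to -0.44), and the highest that of the proton pump subunit ATP6V0D2, 0.65 (0.11 to 1.20). Erythroid genes, 11 of 12 matched, summed to 3054 RPKM and 2466 RPKM, led by HBB with 1655 RPKM and 1393 RPKM. Among those past the minimum, HBA had the lowest log2 ratio, -0.39 (-0.43 to -0.35), and ANK1, which passed through the r/r library alone, the highest, 0.68 (0.29 to 1.08), while SLC4A1, under the minimum, had -1.53 (-2.51 to -0.64). CA1, the abundant isozyme of adult red cells, was listed at 0 in both. The part of osteoclasts and of blood in the ratios of CA2 and the other genes was not tested.

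An isozyme may be listed at 0 or near it because its gene model is incomplete. A total of 6760 features, 24.5%, were at 0 in both libraries. TYRP1, an abundant pigment gene of melanocytes, had 1 read in each on a gene model of 1859 bases, and whether that model is incomplete was not tested. Values at 0 are given as listed, without a statement on expression.

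Markers of the other cell types of the lateral wall differed less in summed level than those of melanocytes. Marginal cell markers, 6 of 9 matched, summed to 1922 RPKM in the R/r library and 1442 RPKM in the r/r library. The most abundant, the sodium pump subunit ATP1B2, had 915 RPKM and 522 RPKM and the lowest log2 ratio, -0.81 (-0.85 to -0.77), and SLC12A2 had the highest, 0.10 (0.05 to 0.15). Basal cell and fibrocyte markers, 4 of 7 matched, summed to 7893 RPKM and 5877 RPKM. COCH, the most abundant, had 6826 RPKM and 4914 RPKM with a log2 ratio of -0.47 (-0.49 to -0.46), and TBX18 had 0.25 (0.22 to 0.29). Markers of root, spindle and spiral prominence cells, 4 of 4, summed to 2201 RPKM and 2538 RPKM, led by EPYC with 1676 RPKM and 2234 RPKM. Of the 3 past the minimum, ANXA1 had the lowest log2 ratio, -0.79 (-0.83 to -0.75), and LGR5, which passed through the r/r library alone, the highest, 0.77 (-0.31 to 1.90). CA14 and CA12 were lower in the same library as ATP1B2 and most of the melanocyte list. COCH and ANXA1 were lower there too, whereas SLC12A2, TBX18 and EPYC were higher. The part of any of these cell types in the ratios of the 10 genes was not tested.

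Other cells of the dissection were examined by their markers as well. Cartilage markers, 7 of 7, summed to 3992 RPKM and 3424 RPKM, led by COL2A1 with 1773 RPKM and 1474 RPKM, with log2 ratios from -0.61 (ACAN) to 0.12 (HAPLN1). CA4 is known from capillaries, and endothelial markers, 5 of 6, summed to 222 RPKM and 214 RPKM, led by CLDN5 with 71.3 RPKM and 76.3 RPKM, with log2 ratios from -0.73 (VWF) to 0.24 (TEK). Macrophage markers, 5 of 5, summed to 37.1 RPKM and 35.5 RPKM, led by AIF1 with 18.2 RPKM and 19.5 RPKM and the highest ratio, 0.10, and CSF1R had the lowest, -0.47.

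To place the 10 genes among the other acid-base genes of the tissue, 56 genes in 7 lists were examined, of which 52 were in the table and 38 passed the minimum. Of these 38, 2 were at least 2-fold lower (5.26%) and 1 at least 2-fold higher (2.63%), while 10 had intervals below 0 and 8 above. CFTR, 1 of the 2 lower, passed through the R/r library alone, which fixed its direction, and of the 36 with at least 1 RPKM in both libraries 1 was 2-fold lower and 1 higher. Over all genes compared, 2.20% and 1.78% were 2-fold lower and higher, and 14.4% and 11.2% had intervals below and above 0.

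Among the other carbonic anhydrases, 6 of 9 passed the minimum, with 2 intervals below 0 and 1 above, beside 14.4% and 11.2% of all genes compared. Their median log2 ratio was -0.01, which lay at 0.01 when scaled by the median and at 0.15 with a minimum of 5 RPKM. CA5B, the mitochondrial isozyme, had 3.60 RPKM in the R/r library and 2.32 RPKM in the r/r library, a log2 ratio of -0.63 (-1.15 to -0.13). CA10, like CA8 a relative without catalytic activity, had 2.78 RPKM and 1.70 RPKM, a log2 ratio of -0.71 (-1.24 to -0.19), opposite in direction to CA8. The third such relative, CA11, had 15.9 RPKM and 17.6 RPKM with an interval that included 0 (-0.10 to 0.39), and was the most abundant of the 3 in each library.

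Of the 7 other SLC4 genes, 5 passed the minimum, 3 with intervals above 0, beside 11.2% of all genes compared, and 1 below, beside 14.4%. Their median log2 ratio was 0.25. SLC4A11, a family member linked to corneal and hearing disease, had 370 RPKM in the R/r library and 423 RPKM in the r/r library, a log2 ratio of 0.19 (0.11 to 0.28). Its gene model came out at 381 bases, which like those of CA12 and CA13 may be a part of the gene or go with a multiple of the reads found. Its level beside those of other genes is therefore less certain. SLC4A10, a sodium-coupled bicarbonate transporter, had 138 RPKM and 194 RPKM, a log2 ratio of 0.49 (0.44 to 0.54) on 6454 and 8165 reads. It was 2.80 times the level of SLC4A2 in the R/r library and 4.40 times in the r/r library, and far above SLC4A7 and SLC4A4, the other carriers of sodium and bicarbonate described above. Summed over the 5 sodium-coupled genes of the family, the level was 145 RPKM and 201 RPKM, a log2 ratio of 0.47, whereas 2 of the 4 past the minimum, SLC4A4 and SLC4A7, were lower. The direction of the sum is that of SLC4A10. The chloride bicarbonate exchangers SLC4A1, SLC4A2 and SLC4A3 summed to 72.8 RPKM and 62.3 RPKM. SLC4A3 had 22.8 RPKM and 18.0 RPKM, a log2 ratio of -0.34 (-0.47 to -0.22). SLC4A1, the exchanger of red cells, was under the minimum in both libraries, at a log2 ratio of -1.53 (-2.51 to -0.64) on 45 and 14 reads.

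SLC26A4, the exchanger that brings bicarbonate to the endolymph and whose loss enlarges the vestibular aqueduct, had 8 reads in the R/r library and 4 reads in the r/r library, 0.209 RPKM and 0.116 RPKM, with a log2 ratio of -0.85 (-3.03 to 1.05). Of the other SLC26 genes, 7 of 10 were in the table and 2 passed the minimum, SLC26A2 with 5.71 RPKM and 5.52 RPKM and SLC26A6 with 4.36 RPKM and 3.75 RPKM, both with intervals that included 0. SLC26A7 was thus the most abundant of the 8 SLC26 genes found, in each library. Otic ionocytes and kidney intercalated cells use CA2 and SLC26A4 with the proton pump. Their transcription factor FOXI1 and the pump subunit ATP6V1B1 were listed at 0 in both libraries, which says nothing on these cells where a gene model may be incomplete. Their 5 markers summed to 7.12 RPKM and 10.1 RPKM. The direction of this sum is that of ATP6V0A4, with 6.28 RPKM and 9.75 RPKM, while SLC4A1 and SLC26A4 had lower values in the r/r library.

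Proton pump subunits of restricted expression had the highest median of the lists, 0.61, over the 4 of 7 genes past the minimum, of which 2 had intervals above 0, beside 11.2% of all genes compared. ATP4A, 1 of the 4, passed through the r/r library alone, with 0.694 RPKM and 1.04 RPKM, where it had to be the higher, and the median was 0.34 with a pseudocount of 1 RPKM. ATP6V0A4, mutated in renal tubular acidosis with deafness, had 6.28 RPKM in the R/r library and 9.75 RPKM in the r/r library, a log2 ratio of 0.63 (0.41 to 0.86) on 289 and 404 reads. ATP6V0D2 had 1.51 RPKM and 2.37 RPKM. ATP12A, the non-gastric proton potassium pump, was listed at 0. The sodium proton exchangers all passed the minimum, 9 of 9, with 2 intervals below 0 and 2 above, beside 14.4% and 11.2% of all genes compared. SLC9A9, an exchanger of endosomes, had 29.1 RPKM and 30.2 RPKM, with an interval that included 0 (-0.14 to 0.24). SLC9A3 was 2.35-fold higher in the r/r library, at a log2 ratio of 1.23 (0.36 to 2.16) on 17 and 36 reads.

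Monocarboxylate cotransporters, which carry lactate with a proton, had the lowest median, -0.37, which was -0.20 with a minimum of 5 RPKM. Of 5 intervals 3 lay below 0, beside 14.4% of all genes compared, and none above. SLC16A1 had 62.7 RPKM in the R/r library and 48.6 RPKM in the r/r library, a log2 ratio of -0.37 (-0.48 to -0.25), and SLC16A8, known from pigment epithelium, had 4.81 RPKM and 2.04 RPKM, a log2 ratio of -1.24 (-2.04 to -0.49) on 55 and 21 reads. Their chaperone BSG had 346 RPKM and 339 RPKM, a log2 ratio of -0.03 (-0.10 to 0.04). Among regulators, 7 of 9 passed the minimum, with 2 intervals below 0, beside 14.4% of all genes compared. Their median was -0.03, or -0.21 with no minimum. The kinase gene WNK4 had 101 RPKM and 76.9 RPKM, a log2 ratio of -0.39 (-0.44 to -0.34). SLC9A3R2, a scaffold of transporters, had 124 RPKM in each. CFTR, a chloride and bicarbonate channel, had 1.12 RPKM and 0.536 RPKM, a log2 ratio of -1.07 (-1.69 to -0.47), and passed the minimum through the R/r library alone.

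**Figure D5:**
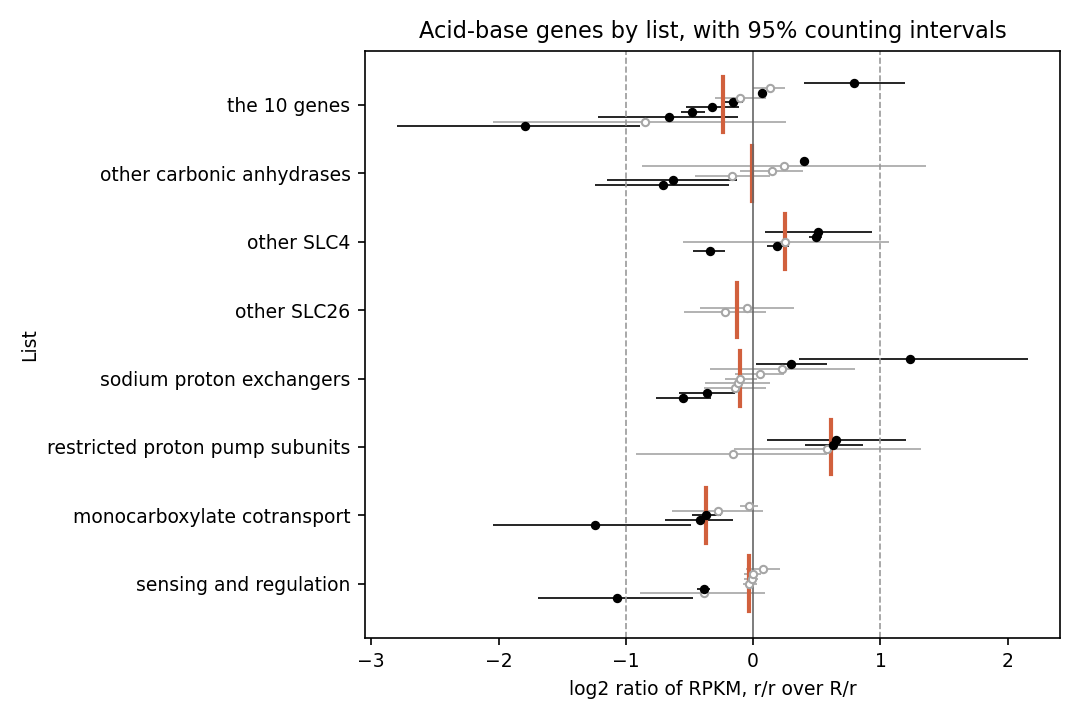
Log2 ratio of RPKM, r/r over R/r, for the 10 genes and for the genes past the minimum in 7 lists of other acid-base genes, with exact 95% counting intervals; filled points have intervals off 0 and vertical bars mark each list's median. The medians run from -0.37 for monocarboxylate cotransport to 0.61 for the restricted proton pump subunits, and few points pass the dashed lines at 2-fold.

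The named genes whose levels in the 2 libraries lay nearest to those of CA12, by Euclidean distance on log2 RPKM, were SYNPR, RPL15 and PRSS35, at distances of 0.27, 0.44 and 0.46. SYNPR had 14 RPKM and 5.11 RPKM on 496 and 163 reads, a log2 ratio of -1.45 (-1.72 to -1.20). Nearest to CA8 were SNORA71, TMEM215 and snoR38, at 0.04, 0.06 and 0.07, of which only TMEM215 had an interval off 0, with 4.66 RPKM and 7.69 RPKM and a log2 ratio of 0.72 (0.28 to 1.17). With 2 libraries, such nearness says only that the levels are alike.

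Position in the genome was examined last, with the gene order of RefSeq (Sscrofa11.1), which held 8 of the 10 symbols. Of the protein-coding genes next to them, 14 were in the table and 12 passed the minimum, with log2 ratios from -0.68 to 0.67 and none at least 2-fold apart, beside 2.20% lower and 1.78% higher among all genes compared, so that a count of 0 is near the background. Beside CA12, APH1B was higher in the r/r library, with 11.2 RPKM and 17.9 RPKM and a log2 ratio of 0.67 (0.33 to 1.01), and RAB8B had 21.5 RPKM and 22.9 RPKM. Beside CA8, TOX was lower, with 2.95 RPKM and 1.84 RPKM and a log2 ratio of -0.68 (-1.08 to -0.29), and RAB2A had 141 RPKM and 157 RPKM. The genes beside CA14, APH1A and ANP32E, had log2 ratios of 0.09 and 0.12. The neighbours of CA12 and CA14 thus did not share their lower level, and beside CA8 only RAB2A was higher, at 0.15 (0.06 to 0.24).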

How the data were processed

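Libraries from lateral wall RNA were sequenced by the authors as paired reads and aligned to Sscrofa10.2 with TopHat2 2.0.7 (per the submitters' processing notes). The authors deposited 1 table of RPKM values; the counting program, the annotation and whether strand was used are not given in the sources used here, so overlapping genes may share reads. The table's 2 unnamed columns, with the authors' own differences and ratios for some genes, were not used.

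Log2 ratios were taken from the deposited RPKM with no pseudocount added, for genes that were above 0 in each library and reached 1 RPKM in at least 1. The 2-fold threshold follows the study. Whole reads were worked out from the ratios of low RPKM values; totals were chosen to make gene model lengths whole, which held for 68.5% of 3000 features, and each feature's reads were then multiplied by the smallest factor that made its length whole. Reads found may be a fraction of the true reads, and intervals are then too wide. Of 9 mitochondrial genes with a length found, 4 had the RefSeq length and 7, these included, a length of which RefSeq's is a whole multiple. The steps were tested on simulated data, the outcome of which is not reported here. A count of 0 allows 3 reads.

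Members and lists were chosen with earlier results of these data known. The genes named are the 10; in each acid-base list the 2 most abundant and those at least 1.5-fold apart with an interval off 0; in each marker list the most abundant, the lowest and highest ratio and defining markers at 0; and the 3 nearest to CA12 and CA8. Other genes named, KCNE1, CLDN11, TYRP1, SLC4A1, SLC4A3, ATP4A, SLC26A4, the isozymes in the sums and the RefSeq neighbours among them, were chosen after their values were seen. Some results that this rule would name are not reported here. KCNJ10 was matched through its older name in the table. Of several features with 1 symbol, that of highest mean RPKM was taken. Alternatives were pseudocounts of 0.1 and 1 RPKM, no minimum and a minimum of 5 RPKM, scaling by the median, the upper quartile and to TPM, summed features, a 1.5-fold threshold and a 99% interval. Software was Python 3.11.15 with scipy 1.17.1, pandas 2.3.3, numpy 2.4.6 and, for figures, matplotlib 3.10.9.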

Additional observations from a re-analysis of the deposited data

How the results depend on the processing

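CA12 was the gene at least 2-fold apart under every pseudocount, minimum, scaling and summing of features tried, and a 1.5-fold threshold raised the number from 1 to 4, 3 lower (6.31% of all genes compared) and 1 higher (4.53%), with SLC4A4 and CA4, which passed the minimum through the R/r library alone, among the 3. The genes with an interval off 0 numbered from 5 to 8, with 7 as reported. The median log2 ratio of the 10 genes stayed below 0, from -0.28 to -0.10. The log2 ratio of the summed catalytic isozymes, 0.28, was 0.30 when scaled by the median and 0.25 as TPM, and without CA3, a choice made after seeing the data, it was 0.00 with the r/r sum the lower by a margin under the rounding; the alternative itself removes the isozyme that held most of the sum. Of 60 values of single genes under an alternative, 1 left its counting interval (CA2, 0.04 as TPM) and none changed sign. List medians were held against the medians of their genes' lower and upper interval ends, a yardstick and no interval of the median itself. Of 56, 1 lay outside (the regulators, -0.21 with no minimum, outside -0.08 to 0.04), and 2 changed sign, both for the other carbonic anhydrases (0.15 with a minimum of 5 RPKM and 0.01 scaled by the median). No paired analysis was possible because each genotype had 1 library and no test was run. Depth limits CA4, with 33 reads, CA12, with 63, and SLC4A4, with 124.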

Other observations

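The table also names an inhibitor of carbonic anhydrase (ICA), a protein known from pig serum, which was singled out after its values were seen. It had 0.758 RPKM in the R/r library and 0.754 RPKM in the r/r library, on 29 and 26 reads, below the minimum in both.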
